A study of Mus musculus with 8 samples.

Results

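Mural cells are the cells that wrap blood vessels. Smooth muscle cells ring arteries, arterioles and larger veins and contract to set vessel calibre, whereas pericytes lie in the basement membrane of capillaries, in contact with the endothelium. Contraction of smooth muscle rests on its own forms of actin and myosin and on actin-binding proteins such as transgelin and calponin. Pericytes are drawn to new vessels by platelet-derived growth factor B (PDGF-B) from the endothelium, which acts on the receptor PDGFRB, and Notch3 signalling is needed to keep arterial smooth muscle intact. In skeletal muscle these cells are a small share of the tissue beside the muscle fibers and are the vascular counterpart of the endothelium.

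The expression of 10 mural marker genes was examined here in the gastrocnemius (GAS). They were chosen by name, with earlier results of these data known. They comprise 5 smooth muscle genes (*Acta2*, *Tagln*, *Myh11*, *Cnn1* and *Myl9*) and 5 genes of pericytes and mural cells in general (*Rgs5*, *Cspg4*, *Pdgfrb*, *Mcam* and *Notch3*). All 10 were found in the table of 22206 probe sets, each with 1 probe set, and all 10 were marked as expressed in both groups by the authors' software. A probe set is the group of short probes that measures a gene on the array. 

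Wild-type male mice of the C57/Bl6j strain were injected at about 10 weeks of age with adeno-associated virus (AAV) in both hindlimbs. One GAS received AAV sh-RNA MYTHO (the MYTHO-KD group), in which a U6 promoter drives a short hairpin RNA against the mRNA of *Mytho*, a FoxO-dependent autophagy gene. The GAS of the opposite leg received AAV sh-RNA scramble, a hairpin with a scrambled sequence behind the same promoter (the scramble group, labelled scrmb). Muscles were taken 12 weeks later, when the mice were 22 weeks old, and RNA of 4 muscles per group was hybridized to Clariom S Mouse arrays, 1 array per muscle. The virus was of a serotype that the study's methods describe as favouring muscle cells, U6 is active in most cell types, and which cells of the muscle lost MYTHO was not measured on these arrays.

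The table holds the authors' average and SD of each group on the log2 scale and no values of single arrays, so the values below are group averages, not those of each muscle. *Mytho*, listed as *D230025D16Rik*, was at 10.02 in scramble and 7.71 in MYTHO-KD, or 20.2% of the scramble signal (adjusted p = 0.0138, limma). Skeletal fiber genes lay near the top of the scale, and *Acta1*, the actin of skeletal fibers, was at 19.93 in both groups, the ceiling of the scale. Differences were tested with limma's moderated test from averages and SDs, and p-values were adjusted over all probe sets. A gene counted as called where its difference reached 2-fold and its unadjusted p was under 0.05, the rule in the study's methods. The muscles of a mouse could not be paired from these values, so the groups were tested as unpaired. Each difference was set against the spread between the arrays of a group, which includes differences between mice. In whole muscle, fewer mural cells and less of an mRNA in each of them cannot be told apart.

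None of the 10 mural markers passed the test for a difference between MYTHO-KD and scramble muscle. None was called at 2-fold, whereas 1.12% of all probe sets were (0.860% higher and 0.257% lower). None had an unadjusted p under 0.05 in limma's test, against 6.48% of all probe sets with higher and 5.52% with lower averages. None had an adjusted p under 0.05 either, against 0.275% of all probe sets, 0.180% higher and 0.0946% lower. The lowest unadjusted p was 0.132 and the lowest adjusted p was 0.571, both for *Cspg4*. The averages of 6 markers were above those of scramble and those of 4 were below, with differences between -0.15 and 0.27 (log2). Higher averages in MYTHO-KD were found for 46.9% of all probe sets. The median difference was 0.115 over the markers and -0.010 over all probe sets. The median size of the difference, whatever its sign, was 0.150 for the markers and 0.180 for all probe sets. With shares this low among all probe sets, 0 calls among 10 genes is not a result about the markers as a set.

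**Figure D1:**
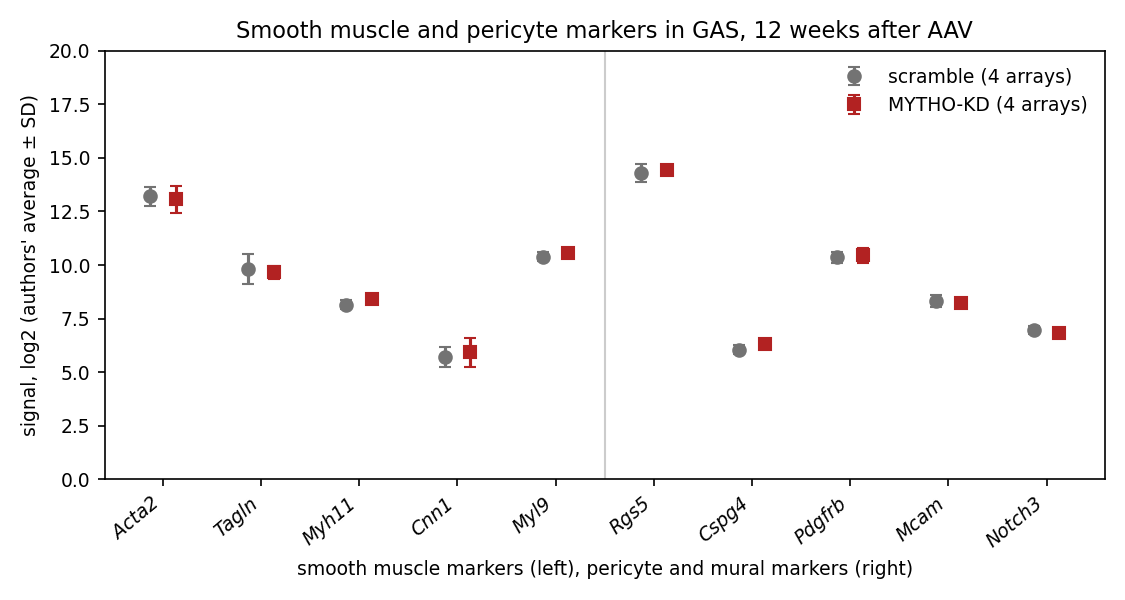
Authors' average signal (log2, vertical axis) of the 10 markers in GAS with scramble (grey circles) or MYTHO-KD (red squares), with bars for the authors' SD over 4 arrays. The SD bars of the groups overlap for all 10 markers, and heights of different genes are not comparable because their probes differ.

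The array data also bound how large a change could have gone unseen. The 95% interval of the difference lay inside 2-fold in either direction for all 10 markers, and for 19753 of all 22206 probe sets. The lowest bound was -0.82 for *Tagln* and the highest was 0.93 for *Cnn1* (log2). For 4 markers, *Myl9*, *Pdgfrb*, *Mcam* and *Notch3*, the interval also lay inside 1.5-fold in either direction, as it did for 8519 of the 22206 probe sets. Most probe sets on these arrays were thus bounded at 2-fold, and this is not particular to the markers. A p that misses the threshold does not show that the levels were equal, and smaller changes than these bounds remain possible. *Cnn1* and *Cspg4* were dim, with averages below the median of all probe sets, 6.81 in either group. The table does not say how arrays were averaged, and for a robust average the true intervals would be somewhat wider. Without moderation of the variance, and likewise with unequal variances, the interval stayed inside 2-fold for 7 of 10 markers, and those of *Acta2*, *Tagln* and *Cnn1* did not.

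**Figure D2:**
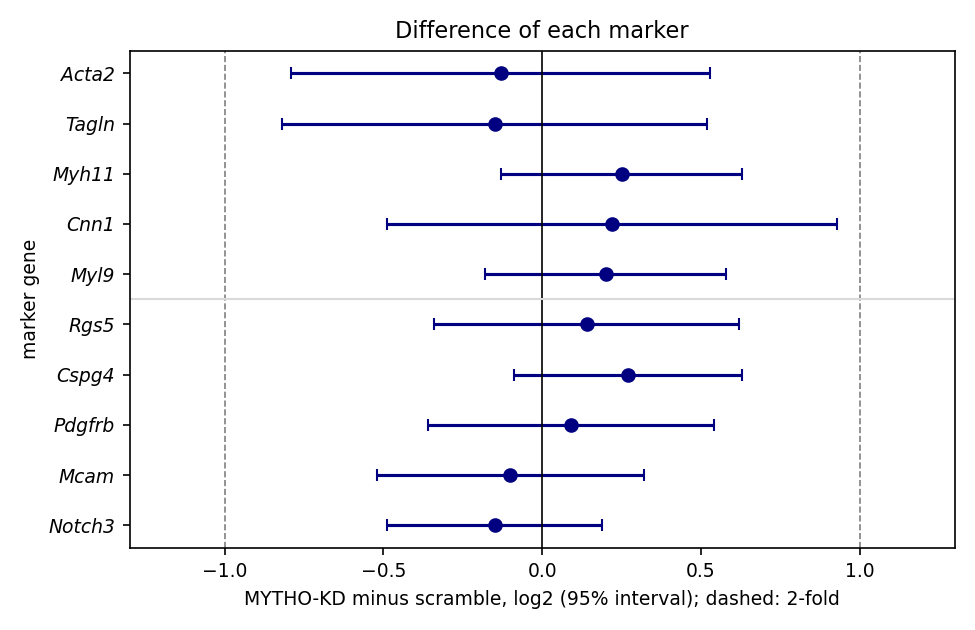
Difference between MYTHO-KD and scramble (log2, horizontal axis) for each marker, with its 95% interval from limma's moderated test; dashed lines mark 2-fold. Every interval crosses 0 and ends inside the dashed lines, from -0.82 for *Tagln* to 0.93 for *Cnn1*.

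Coordinates of the markers are those of the table on the mouse build mm10. *Acta2*, which encodes the smooth muscle alpha actin of vessels and of myofibroblasts, lies on chromosome 19 from 34240336 to 34255373. *Myh11*, the smooth muscle myosin heavy chain and the most restricted of these genes to mature smooth muscle, lies on chromosome 16 from 14194527 to 14291408. *Myl9*, a regulatory light chain of that myosin, lies on chromosome 2 from 156775420 to 156781658. *Tagln*, which encodes transgelin, lies on chromosome 9 from 45929628 to 45936058. *Cnn1*, which encodes calponin, lies on the same chromosome from 22099253 to 22109630. With *Mcam* and *Cspg4*, 4 of the 10 markers are on chromosome 9, at separate loci.

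Smooth muscle genes are controlled through serum response factor (SRF), which binds a 10-base element called the CArG box together with myocardin or its relatives. Promoter sequences from RefSeq (GRCm38.p6) were searched for 7 of the 10 markers, over the 250 bases before the RefSeq start of the gene. They were *Acta2*, *Cnn1*, *Myl9*, *Rgs5*, *Cspg4*, *Mcam* and *Notch3*, while *Tagln*, *Myh11* and *Pdgfrb* were not searched. An exact CArG box was found in 1 of the 7, *Myl9*, and boxes with at most 1 base off among the middle 6 bases were found in *Myl9* and *Acta2*. Of 32851 promoters searched over the same 250 bases, 1.47% hold an exact box and 8.59% hold one with at most 1 base off. Since the element reads the same on both strands, 1 search covers both. The stretches of 100 bases with the boxes of these 2 genes are shown, 5′ to 3′ on the strand of the gene, with the boxes in capitals. The *Acta2* stretch is chr19:34255389-34255488 on the minus strand, with boxes at positions -84 and -34 from the RefSeq start at 34255373, and the *Myl9* stretch is chr2:156775289-156775388 on the plus strand, with boxes at -161 and -99 from the RefSeq start at 156775464, which lies inside the gene as the array table places it.
Acta2: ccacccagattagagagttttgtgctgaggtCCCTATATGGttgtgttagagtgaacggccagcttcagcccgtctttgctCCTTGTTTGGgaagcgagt
Myl9: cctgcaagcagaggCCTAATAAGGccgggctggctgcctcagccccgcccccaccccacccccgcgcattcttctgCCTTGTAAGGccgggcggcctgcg
The first box of *Myl9* is the exact one. A match of letters is not a measured binding site, and binding of SRF was not measured here.

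Of the 5 smooth muscle genes, the averages of 3 were higher in MYTHO-KD and those of 2 were lower, and no difference passed the test. *Acta2* had an average of 13.20 in scramble and 13.07 in MYTHO-KD, with authors' SDs of 0.43 and 0.62. Its log2 difference was -0.13 (standard error 0.303, adjusted p = 0.921), with an interval from -0.79 to 0.53. The difference was less than either SD. *Tagln* averaged 9.81 (SD 0.71) in scramble and 9.66 (SD 0.30) in MYTHO-KD, a difference of -0.15 (standard error 0.308, adjusted p = 0.906). *Cnn1* was at 5.71 and 5.93, with SDs of 0.47 and 0.68, a difference of 0.22 (standard error 0.326, adjusted p = 0.856). These were the 3 markers measured with the least precision, and their intervals reached 0.66 to 0.71 (log2) to either side.

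*Myh11* and *Myl9* were measured more closely. *Myh11* was at 8.15 in scramble and 8.40 in MYTHO-KD, with SDs of 0.20 and 0.22. Its difference of 0.25 (standard error 0.176, adjusted p = 0.633) corresponds to 1.19-fold, and its interval ran from 0.911-fold to 1.55-fold. *Myl9* was at 10.38 and 10.58, with SDs of 0.21 and 0.20, a difference of 0.20 (standard error 0.175, adjusted p = 0.722). In both genes the difference was about as large as the SD within a group. The genes of the contractile machinery did not share a direction, since the actin and transgelin averages were lower while those of the myosin subunits and calponin were higher.

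Among the pericyte and mural genes, *Rgs5* encodes a brake on G protein signalling that is abundant in pericytes and lies on chromosome 1 from 169655501 to 169695813. It averaged 14.29 (SD 0.43) in scramble and 14.43 (SD 0.19) in MYTHO-KD, a difference of 0.14 (standard error 0.219, adjusted p = 0.865). *Pdgfrb*, the receptor for PDGF-B, lies on chromosome 18 from 61045150 to 61085067 and is found on pericytes and on fibroblasts. It was at 10.36 and 10.45, with SDs of 0.25 and 0.34, a difference of 0.09 (standard error 0.206, adjusted p = 0.918), the smallest of the 10. For both genes the groups differed by less than the SD of either group.

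*Cspg4* encodes the proteoglycan NG2, found on pericytes and on several progenitor cells, and lies on chromosome 9 from 56865104 to 56899870. It was at 6.05 in scramble and 6.32 in MYTHO-KD, with SDs of 0.20 and 0.15. Its difference of 0.27 (standard error 0.167, adjusted p = 0.571) was the largest of the 10 in size, and 33.6% of all probe sets differed by at least as much. *Mcam*, an adhesion molecule (CD146) of mural cells and endothelium on chromosome 9 from 44134469 to 44142727, was at 8.32 and 8.22, with SDs of 0.29 and 0.22 (difference -0.10, standard error 0.192, adjusted p = 0.897). *Notch3*, on chromosome 17 from 32120820 to 32166880, was at 6.98 and 6.83, with SDs of 0.19 and 0.05. Its difference of -0.15 (standard error 0.157, adjusted p = 0.779) had the narrowest interval of the 10, from -0.49 to 0.19, which places MYTHO-KD between 0.71 and 1.14 of the scramble signal.

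The markers differed among themselves in how much they varied between the arrays of a group. The pooled SD of both groups was 0.534 for *Acta2*, 0.545 for *Tagln* and 0.585 for *Cnn1* (log2), and only 3.01% of all probe sets had a pooled SD as large as that of *Cnn1*. It was 0.21 for *Myh11* and 0.205 for *Myl9*, and between 0.139 and 0.332 for the 5 pericyte and mural genes. The median over all probe sets was 0.292. The spread was not in the same group for each gene. *Tagln* varied most in scramble, where 1.39% of all probe sets had an SD at least as large, and had an SD near the median in MYTHO-KD. *Acta2* and *Cnn1* varied more in MYTHO-KD, where 4.3% and 2.86% of all probe sets reached their SDs. At the other end, the SD of *Notch3* in MYTHO-KD, 0.05, was matched or undercut by 1.31% of probe sets. Whether the same arrays were high or low for *Acta2*, *Tagln* and *Cnn1* cannot be read from group values, and a difference of SDs was not tested.

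**Figure D3:**
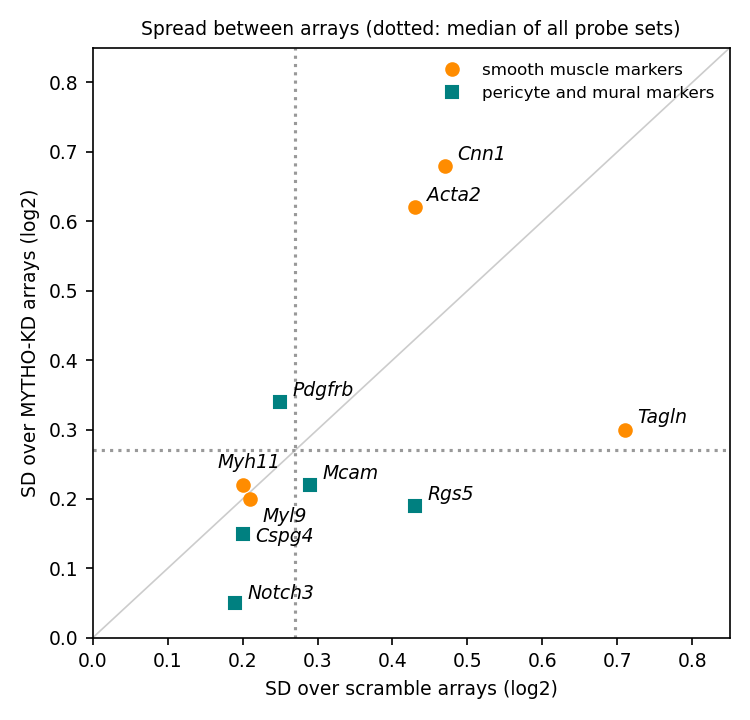
SD over the 4 scramble arrays (horizontal) and over the 4 MYTHO-KD arrays (vertical) for each marker, both in log2, with dotted lines at the median of all probe sets (0.27 in each group) and a diagonal of equal SDs. *Tagln* stands far to the right, and *Acta2* and *Cnn1* lie high in both directions. The pericyte and mural markers lie lower, all but *Pdgfrb* to the right of the diagonal.

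Further genes of the same cells were examined from lists. Of 11 other smooth muscle genes, 8 had higher and 3 lower averages in MYTHO-KD (median difference 0.150) and none was called or had an unadjusted p under 0.05 in limma's test. The largest differences were those of *Mylk*, the kinase that phosphorylates the myosin light chain (0.58, standard error 0.294, adjusted p = 0.462), *Aoc3*, a vascular amine oxidase (-0.29, adjusted p = 0.856), and *Itga8*, an integrin subunit (0.25, adjusted p = 0.689). Of 15 other pericyte genes, 12 had higher and 3 lower averages (median 0.180). Among all probe sets, 46.9% had higher averages and 0.860% were called as higher. *Anpep*, the surface aminopeptidase CD13, was the one called. It was at 8.18 in scramble and 9.26 in MYTHO-KD, with SDs of 0.39 and 0.57 (difference 1.08, standard error 0.283, adjusted p = 0.153). CD13 is also found on myeloid cells and fibroblasts, and the part of those cells in the *Anpep* difference was not tested. The rest of this list had differences between -0.15 and 0.46 and no unadjusted p under 0.05. The ends of that range, named after their values were seen, were *Abcc9*, a potassium channel subunit (-0.15), and *Rgs4*, a relative of *Rgs5* (0.46, adjusted p = 0.544).

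SRF and its partners were measured as well. *Srf* itself differed by 0.11 (standard error 0.226, adjusted p = 0.906). *Mkl2*, which encodes the myocardin-related cofactor MRTF-B and is also active in muscle fibers, was at 12.59 in scramble and 12.03 in MYTHO-KD, with SDs of 0.22 and 0.14. Its difference of -0.56 (standard error 0.169) had an unadjusted p of 0.00625 in limma's test and an adjusted p of 0.204, and it did not reach 2-fold. *Klf4*, a repressor of the contractile smooth muscle genes that is also made by endothelium and macrophages, was at 6.59 and 7.49, with SDs of 0.08 and 0.73. Its difference of 0.90 (standard error 0.297) had an unadjusted p of 0.0106 in limma's test and an adjusted p of 0.248. That test averages the variances of both groups, which lay far apart for *Klf4*, so its p depends on this choice. *Myocd*, which encodes myocardin and was singled out after its value was seen, differed by 0.04. None of the 5 genes of this list was called. With an unadjusted p under 0.05 there was 1 gene higher and 1 lower, against 6.48% and 5.52% of all probe sets.

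Endothelium and mural cells signal to each other through PDGF, Notch, angiopoietin, endothelin, TGF-beta and sphingosine phosphate. Of 22 such ligands, receptors and targets, 17 had higher and 5 lower averages in MYTHO-KD (median difference 0.195), and 4 had an unadjusted p under 0.05, all of them higher, against 6.48% of all probe sets in that direction. *Ednrb*, the endothelin B receptor, was called, against 0.860% of all probe sets called as higher. It was at 10.03 in scramble and 11.07 in MYTHO-KD, with SDs of 0.32 and 0.50 (difference 1.04, standard error 0.254, adjusted p = 0.126). The other 3 were chosen for the text after their values were seen. *Pdgfb*, the ligand of *Pdgfrb*, was at 8.42 in scramble and 9.25 in MYTHO-KD, with an SD of 0.40 in either group (difference 0.83, standard error 0.246, adjusted p = 0.199). *Pdgfd*, a second ligand of that receptor, differed by 0.74 (standard error 0.251, adjusted p = 0.262), and *Tgfb1* by 0.62 (standard error 0.244, adjusted p = 0.339). None of these reached 2-fold or passed the adjustment, while the receptor itself differed by 0.09. Whether a ligand and its receptor differ in their response was not tested, because that needs the values of single arrays. Of the genes on the Notch side, named after their values were seen, the ligands *Jag1* and *Dll4* differed by 0.03 and 0.32. The receptors *Notch1*, *Notch2* and *Notch4* differed by 0.36, -0.05 and -0.34. The targets *Hes1*, *Hey1* and *Hey2* differed by 0.09, 0.21 and 0.02. *Heyl*, a target of Notch3 that was counted above with the other pericyte genes, differed by 0.18. None of these had an unadjusted p under 0.05 in limma's test.

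Markers of other cells in the muscle are given for comparison, and those of endothelium, fibroblasts and macrophages were all marked as expressed in both groups. These lists, too, were chosen with earlier results of these data known. All 11 endothelial markers had averages above those of scramble, with a median difference of 0.340, and 2 of them had an unadjusted p under 0.05 against 6.48% of all probe sets in that direction. None was called, against 0.860% of all probe sets called as higher, and the largest differences were those of *Kdr* (0.75, adjusted p = 0.190), *Eng* (0.64, adjusted p = 0.364) and *Tek* (0.53, adjusted p = 0.432). All 10 fibroblast and matrix genes had averages above those of scramble, from 0.03 to 1.49 with a median of 0.605. Of these, 4 had an unadjusted p under 0.05, and 2, *Lum* (1.49, adjusted p = 0.0443) and *Col3a1* (1.43, adjusted p = 0.102), were called. The averages of the 10 macrophage markers were above those of scramble by 0.01 to 2.53, with a median of 0.695. Of these, 6 had an unadjusted p under 0.05, 2 passed the adjustment, and *Cd68* (2.53, adjusted p = 0.0182), *Lyz2* (1.94, adjusted p = 0.0277) and *C1qb* (1.27, adjusted p = 0.0754) were called, 3 in all. For the fibroblast and macrophage lists alike, the shares of all probe sets as higher were 6.48% with an unadjusted p under 0.05 and 0.860% called. A share of 0.180% passed the adjustment as higher. The 5 smooth muscle markers had a median of 0.200 and the 5 pericyte and mural markers one of 0.090. That these medians differ from those of other cell types was not tested, since genes of a list are not replicates.

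**Figure D4:**
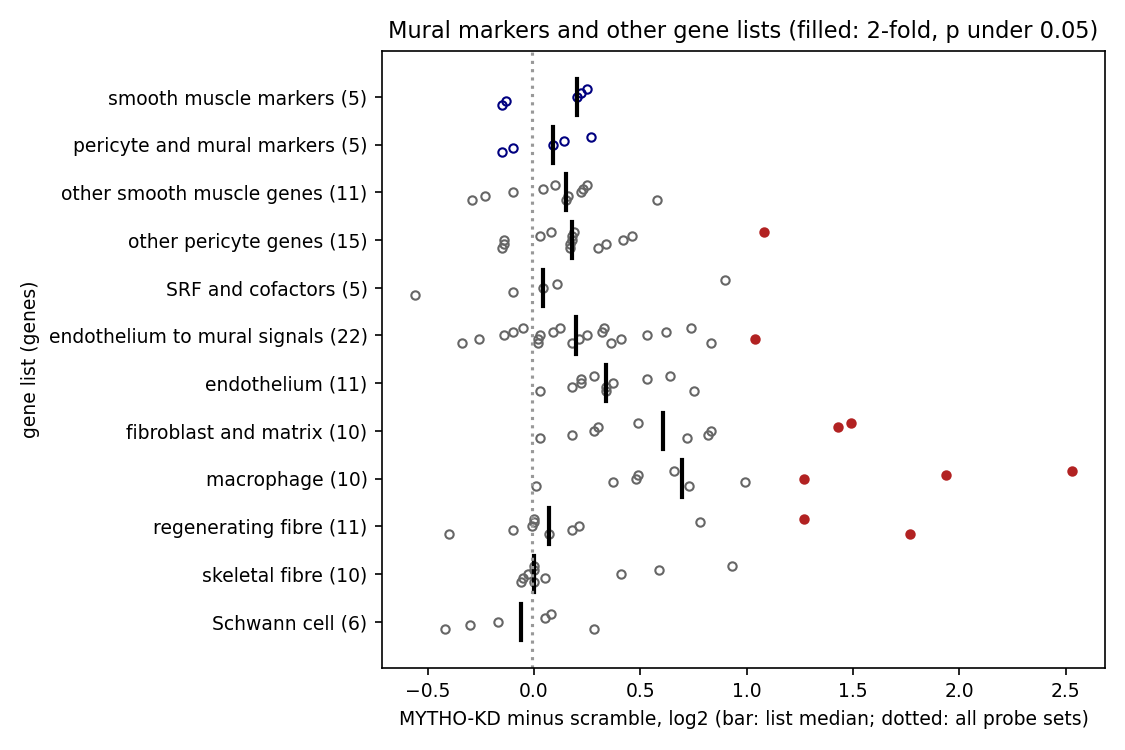
Difference between MYTHO-KD and scramble (log2, horizontal axis) of each gene in the mural marker lists and in the lists for comparison, with the number of genes in brackets. Points are genes, filled in red where called at 2-fold with an unadjusted p under 0.05, and black bars are list medians. The mural markers lie between -0.15 and 0.27 with no call, and the calls lie in the other lists, up to 2.53 for the macrophage marker *Cd68*.

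Several mural genes are also used by other cells. *Acta2*, *Tagln* and *Pdgfrb* are active in myofibroblasts and fibroblasts, whose list had a median of 0.605, and the averages of these 3 genes differed by -0.13, -0.15 and 0.09. Immature and regenerating fibers can transiently make smooth muscle alpha actin. Of 11 genes of regenerating fibers, 6 had higher and 3 lower averages, and 2 were equal (median 0.070). *Mymk*, listed as *Tmem8c* and needed for myoblast fusion (1.77, adjusted p = 0.0749), and *Myh3*, the embryonic myosin (1.27, adjusted p = 0.366), were called, against 0.860% of all probe sets called as higher. Of the 2 equal genes, *Myh8* was at 19.93 in both groups, the ceiling of the scale, which can mask an increase. The list of Schwann cell genes, 6 in all, had a median of -0.060 with no call, its largest differences being those of *Mbp* (-0.42), *Sox10* (-0.30) and *Pmp22* (0.28). Of 10 skeletal fiber genes the median was 0.000 and none was called. The largest differences were those of *Mb* (0.93, adjusted p = 0.0754), *Myh1* (0.59, adjusted p = 0.230) and *Myh2* (0.41, adjusted p = 0.315). These 3 had an unadjusted p under 0.05 in limma's test, against 6.48% of all probe sets as higher. Most of the skeletal fiber genes lay close to the ceiling of the scale, which can mask an increase. Among all probe sets, 1.12% were called in either direction. The part of these cells in the values of the mural markers was not tested.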

How the data were processed

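RNA of GAS muscles (4 arrays for MYTHO-KD and 4 for scramble) was measured on Clariom S Mouse arrays. Per the study's methods, signals were processed with SST-RMA under the default settings of Transcriptome Analysis Console. This method corrects background, equalizes the distributions of the arrays and expands the contrast of signals, which affects the size of differences. The sample labels name Affymetrix Expression Console and RMA instead, with build mm10. The deposited table of 28 columns gives, per probe set and group, the authors' log2 average, its SD and an expressed flag. Columns of the authors' comparison (fold change, p-value and false discovery rate) were not used. No columns hold single arrays. Averages ran from 3.18 to 19.93, with a median SD of 0.27 in either group.

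The planned limma model on arrays could not be fitted, so the moderated test was computed from averages and SDs with limma 3.58.1 in R 4.3.3. Variances of the groups were averaged, with 6 residual degrees of freedom. They were moderated with squeezeVar over 22206 probe sets (prior SD 0.284, 5.85 prior degrees of freedom). p-values are two-sided with Benjamini-Hochberg adjustment. The script was tested on simulated data. If the authors' averages are Tukey biweight averages, p-values are somewhat too low. Array number limits the precision, and arrays have no sequencing depth.

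All 10 markers are named. Of each other list, called genes are named, or the 3 largest differences. With several probe sets per gene, the brightest was used. Markers and lists were chosen with earlier results of these data known. Older symbols were matched through RefSeq. Alternatives were a test without moderation, a variance trend fitted robustly, unequal variances, the larger of both variances, removal of dim probe sets (below 5.715, the percentile 30 of mean signal), all probe sets of a gene, centring on the median difference, and other thresholds.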

Additional observations from a re-analysis of the deposited data

How the results depend on the processing

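No paired analysis was possible because the table gives 1 average and 1 SD per group, so the planned replicate block could not be fitted and leaving out each replicate was not run. In each of the 7 settings of the test, none of the 10 mural markers was called at 2-fold, and none had an unadjusted or adjusted p under 0.05. None was called at 1.5-fold, or at 2-fold with an adjusted p under 0.05, either. The lowest unadjusted p among the markers was 0.132 as reported and lay between 0.0741 (no moderation) and 0.188 (the larger of both variances) in the other settings. The lowest adjusted p lay between 0.504 and 0.853. In each setting 6 markers had higher and 4 had lower averages. The median difference of 0.115 was 0.125 after centring on the median of all probe sets, and the filter on dim probe sets removed no marker. With several probe sets per gene as the alternative nothing moved, because each marker has 1. The number of intervals inside 2-fold was 10 as reported, 7 without moderation, 7 with unequal variances and 8 with the larger of both variances, the last without *Tagln* and *Cnn1*. Over all probe sets the number with an adjusted p under 0.05 was 61 as reported, 2 without moderation, 2 with unequal variances, 3 with the larger of both variances and 189 with a trend and robust fitting, so the adjustment over all probe sets depends on the variance model.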
